A study of Mus musculus with 8 samples.

Results

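Both arms of miR-126a (mmu-miR-126a-3p and mmu-miR-126a-5p) and the 5p arm of miR-139 (mmu-miR-139-5p) were followed in mouse liver as 3 microRNAs (miRNAs) linked to endothelial cells. They were chosen by name, with earlier results of these data known, and each had 1 entry in a table of 484 entries, which held 443 distinct mature sequences. The samples were livers of male mice of the inbred strain C57BL/6J, aged 10 to 11 weeks when fed. For 2 weeks one group ate HFrD, a diet rich in fructose, with 10% of its calories from fat, 70% from carbohydrate and 20% from protein. The labels call this group an HFrD-induced model of non-alcoholic fatty liver disease (NAFLD). The other group ate chow, the normal diet, whose composition the labels leave out. Each diet had 4 samples, all without a genetic alteration in the labels. The labels number the samples but do not tie each number to a separate mouse, so the p-values reflect only how these samples scatter, which may be technical. Fructose and any other difference in diet composition cannot be told apart.

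A miRNA is cut from a hairpin precursor that yields a 5p and a 3p arm. The arm loaded into an Argonaute protein pairs through its seed, bases 2 to 8, with target messenger RNAs and lowers their output. The miR-126 hairpin lies within Egfl7, which encodes a protein secreted by endothelial cells, and is a standard marker of endothelium. It is also found in platelets and blood stem cells. Its 3p arm is known to restrain Spred1, an inhibitor of vascular growth factor signalling, and its 5p arm is known in mice to restrain Dlk1, a Notch inhibitor, in arterial endothelium. miR-139 lies within Pde2a, which encodes a cyclic nucleotide phosphodiesterase, and is best known for its loss in human liver cancer. miR-139-5p is less cell-type specific than miR-126, and in human cancer cells it is reported to target the chemokine receptor CXCR4.

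The mature sequences are shown as deposited, in the 5′ to 3′ direction with the seed in capitals, because the seed sets which messages each arm can bind.
miR-126a-3p: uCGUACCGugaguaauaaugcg
miR-126a-5p: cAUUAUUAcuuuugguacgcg
miR-139-5p: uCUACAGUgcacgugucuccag
The 3 seeds differ from one another, and none of the other sequences of the table or the other RefSeq mouse miRNAs shares any of them. No other sequence of the table shares a run of 14 bases with any of the 3, so a length variant of them was not listed separately. Their lengths are 22, 21 and 22 bases, and their GC contents 45.5%, 38.1% and 54.5% for miR-126a-3p, miR-126a-5p and miR-139-5p.

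The hairpins, from RefSeq on GRCm38.p6, show how the arms sit in their precursors, with the measured arms in capitals.
Mir126a: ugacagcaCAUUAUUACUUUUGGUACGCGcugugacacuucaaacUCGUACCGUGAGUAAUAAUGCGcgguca
Mir139: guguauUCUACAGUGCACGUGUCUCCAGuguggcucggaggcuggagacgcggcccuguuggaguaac
Mir126a covers 73 bases at chr2:26591357-26591429 on the plus strand. In GENCODE M21 it lies in an intron of 7 protein-coding Egfl7 transcripts, in an exon of 1 Egfl7 transcript with a retained intron, and in an intron of the overlapping gene model Gm20532. Within it, miR-126a-5p lies at chr2:26591365-26591385 and miR-126a-3p at chr2:26591402-26591423. A second precursor, Mir126b, is annotated on the opposite strand at chr2:26591363-26591420, and neither of its arms is listed in the table. Mir139 covers 68 bases at chr7:101475376-101475443 on the plus strand, in introns of Pde2a, including 4 protein-coding transcripts, and of the overlapping model Gm45837. Its other arm, miR-139-3p, is not listed either.

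The 3 seeds differ in how many messages carry a complementary site. The reverse complement of bases 2 to 8 was searched on the sense strand of the longest 3′ untranslated region of each of 21020 protein-coding genes in GENCODE M21. CGGTACG, the match for miR-126a-3p, which holds 2 CG dinucleotides, occurred in 33 genes (0.157%). TAATAAT, the match for miR-126a-5p, occurred in 2764 genes (13.1%), and ACTGTAG, the match for miR-139-5p, in 2313 genes (11.0%). For sites that pair with bases 2 to 7 and have an A opposite base 1, the shares were 0.733% (GGTACGA), 15.6% (AATAATA) and 13.8% (CTGTAGA). Of known targets, 1 site each is given as an example, with 8 bases on either side and the matching bases in capitals.
Spred1, miR-126a-3p: aaatgtaaGGTACGAactatgac
Dlk1, miR-126a-5p: ataatgaaTAATAATaataagaa
Cxcr4, miR-139-5p: tgtgtaggACTGTAGaactgtag
The capitals lie at chr2:117178460-117178466 (plus strand), chr12:109460595-109460601 (plus strand) and chr1:128588570-128588576 (minus strand) of GRCm38. Spred1 had 1 match of the shorter kind and none to bases 2 to 8. Dlk1 had 2 matches to bases 2 to 8, which overlap in the stretch shown, and Cxcr4 had 2. These were shown because they hold a match. Of the other known targets searched, Pik3r2 and Vcam1 for miR-126a-3p and Rock2 for miR-139-5p had 0 matches of either kind, and for miR-139-5p Notch1 had 1 and Igf1r 2 matches to bases 2 to 8. A match describes these letters and is not shown to be a functional site, and messenger RNAs were not analysed here.

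Libraries held between 1120035 and 1638036 counts, and every member was counted at least 126 times in each, so the lower limit of the table (a smallest listed count of 2) did not touch them. Values are given as CPM, counts brought to a common library size, with library totals adjusted by trimmed mean of M-values (TMM) factors. Each tag counts once whatever its length, but ligation may favour some sequences, so an order between miRNAs is an order of counts. The scaling matters here because the factors ran from 0.972 to 1.13 in HFrD and from 0.894 to 1.02 in chow. Chow replicate 4 had the lowest factor and stood apart from the other libraries on the first principal component (5.14, against 0.516 to 1.69 for the other chow libraries and −2.69 to −1.50 in HFrD). Replicates differed by more than counting noise, with chi-square per degree of freedom of 9.77 to 200 for pairs within HFrD and 5.70 to 89.7 within chow.

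miR-126a-3p was the most abundant of the 3, in 11th place among the 170 miRNAs that passed the filter on low counts. In HFrD replicates 1 to 4 it was measured at 6564, 5657, 6098 and 6131 CPM, and in chow replicates 1 to 4 at 7185, 8120, 7834 and 9799 CPM. The highest HFrD sample was thus under the lowest chow sample, and chow replicate 4 was the highest of the 8. The means were 6113 ± 371 CPM in HFrD and 8234 ± 1114 CPM in chow (SD, n = 4 each), a log2 fold change of −0.43 (SE 0.098, 95% interval −0.64 to −0.22, adjusted p = 0.0123 over the 170 miRNAs, edgeR's quasi-likelihood test). Of the 170 miRNAs, 10 (5.88%) were called with 6 (3.53%) lower and 4 (2.35%) higher, so miR-126a-3p was 1 of those 6. Groups that did not overlap occurred in 24 of the 170 (14.1%). The counts behind the values were 10250, 6606, 9705 and 8117 in HFrD and 9023, 9564, 10076 and 11014 in chow, whose counting error alone is 0.953% to 1.23%. The spread between samples was larger, with a coefficient of variation of 6.06% in HFrD and 13.5% in chow. The call ended without chow replicate 2 (log2 fold change −0.44, adjusted p = 0.0844) or without HFrD replicate 4 (−0.42, adjusted p = 0.0643), and without chow replicate 4 the value was −0.36 (adjusted p = 0.0170).

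miR-126a-5p, the other arm of the same hairpin, was much rarer. It was measured at 299, 233, 254 and 271 CPM in HFrD replicates 1 to 4 and at 252, 310, 306 and 280 CPM in chow replicates 1 to 4. The groups overlapped, since HFrD replicate 1 lay above chow replicates 1 and 4. The means were 264 ± 27.98 CPM in HFrD and 287 ± 26.7 CPM in chow (SD, n = 4 each), and the log2 fold change of −0.12 did not pass the test (SE 0.11, 95% interval −0.35 to 0.12, adjusted p = 0.504, edgeR). Counts of 467, 272, 404 and 359 in HFrD and 317, 365, 394 and 315 in chow give a counting error of 4.63% to 6.06%, below the coefficient of variation of 10.6% in HFrD and 9.30% in chow.

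miR-139-5p was the rarest of the 3 and varied least within HFrD. It was measured at 127, 113, 118 and 118 CPM in HFrD replicates 1 to 4 and at 122, 107, 138 and 123 CPM in chow replicates 1 to 4. The HFrD values lay within the range of the chow values. The means were 119 ± 5.73 CPM in HFrD and 122 ± 12.5 CPM in chow (SD, n = 4 each), with a log2 fold change of −0.04 (SE 0.12, 95% interval −0.30 to 0.22, adjusted p = 0.823, edgeR). Counts ran from 132 to 198 in HFrD and from 126 to 177 in chow, for a counting error of 7.11% to 8.91%. In HFrD the coefficient of variation of 4.82% was below this counting error, and in chow it was 10.2%. The intervals of miR-126a-5p and miR-139-5p each hold 0 and also hold falls of up to 0.35 and 0.30 on the log2 scale, so a small fall of either could not be detected with the spread and depth of these 8 samples.

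**Figure D1:**
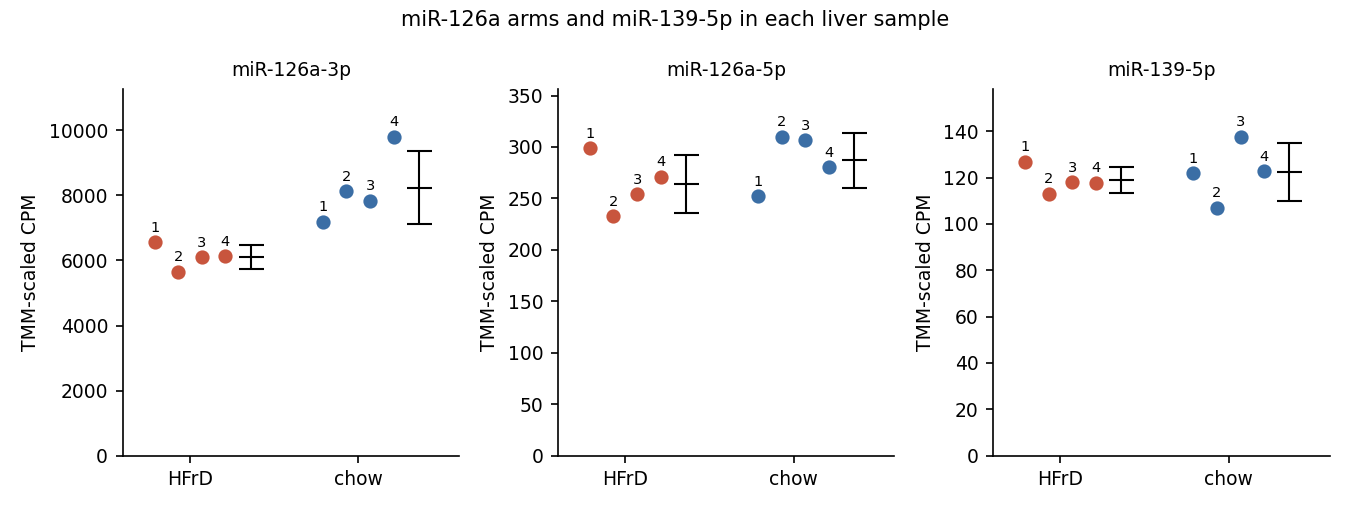
TMM-scaled CPM (vertical axes from 0) of miR-126a-3p, miR-126a-5p and miR-139-5p in each liver sample, with points numbered by replicate and bars at the mean ± SD of 4 samples per diet. The HFrD points of miR-126a-3p, from 5657 to 6564 CPM, all lie below the chow points, from 7185 to 9799 CPM, while the groups of the other miRNAs overlap.

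The direction of the 2 rarer members depended on how libraries were scaled. Over plain library totals, miR-126a-3p was at 7396, 5898, 5925 and 6372 CPM in HFrD and 7329, 7817, 7520 and 8763 CPM in chow, so that HFrD replicate 1 lay above chow replicate 1. On that scale miR-126a-3p was at −0.30 on the log2 scale (adjusted p = 0.0460, edgeR), miR-126a-5p was at 0.01 and miR-139-5p at 0.08, neither past the test. Library totals moved the median over the 170 miRNAs to 0.13, against 0.01 with TMM factors, and the calls to 17 higher and 6 lower, against 4 higher and 6 lower. Relative to the median of all tested miRNAs, miR-126a-3p was at −0.43 with library totals and −0.44 with TMM factors, miR-126a-5p at −0.12 and −0.13, and miR-139-5p at −0.05 on both. Other factors shift all miRNAs of a library alike, so these distances are nearly fixed by construction and are not a check of the result. With upper quartile factors miR-126a-3p was at −0.32 and its call ended (adjusted p = 0.154, edgeR). Its distance from the median was −0.44, which for the same reason does not offset the lost call. After a correction for GC content miR-126a-3p was at −0.42 (adjusted p = 0.0130, limma), miR-126a-5p at −0.04 and miR-139-5p at −0.16.

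**Figure D2:**
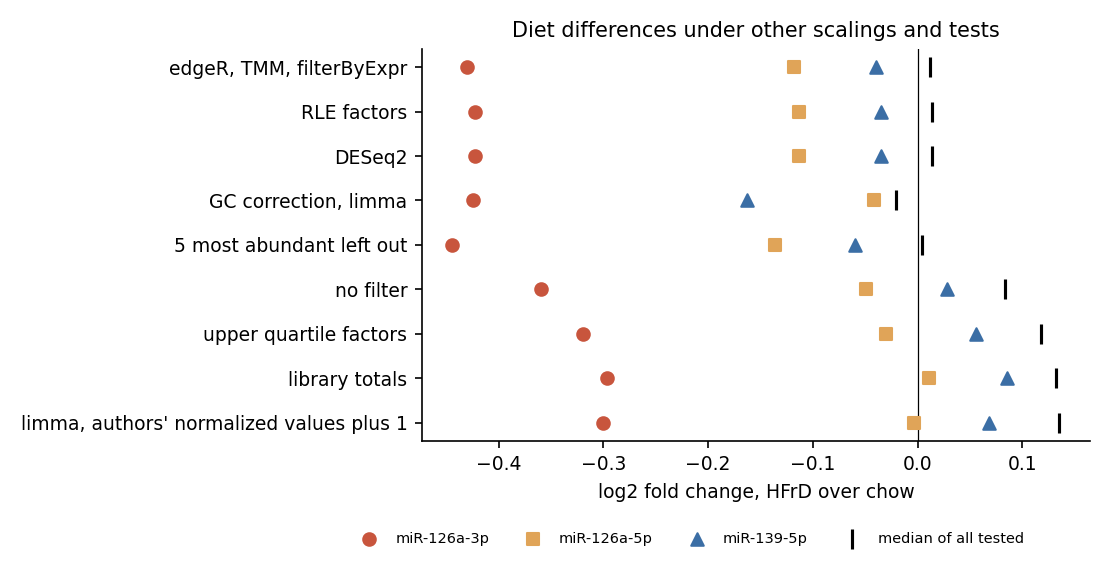
Log2 fold change, HFrD over chow, of the 3 miRNAs (colored symbols) and the median of all tested miRNAs (black ticks) under 9 scalings or tests, 1 per line. miR-126a-3p lies between −0.44 and −0.30 throughout, miR-126a-5p and miR-139-5p move in opposite directions under the GC correction (to −0.04 and −0.16), and miR-139-5p crosses 0 with no filter, upper quartile factors, library totals and the authors' normalized values.

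Ratios between members of a library do not depend on its scaling, and they compare the changes directly. miR-126a-5p made up 4.36%, 3.95%, 3.996% and 4.24% of the counts of both arms in HFrD replicates 1 to 4, and 3.39%, 3.68%, 3.76% and 2.78% in chow replicates 1 to 4. Every HFrD share was above every chow share, and chow replicate 4 had the lowest. There were thus 21.9 to 24.3 counts of the 3p arm for each of the 5p arm in HFrD and 25.6 to 34.97 in chow. The nearest shares were 3.95% in HFrD replicate 2 and 3.76% in chow replicate 3. The counting error of miR-126a-5p in these libraries was 6.06% and 5.04% of its value, so read sampling alone could close the gap between them. The log2 ratio of 5p to 3p was −4.53 ± 0.070 in HFrD and −4.83 ± 0.20 in chow (SD, n = 4 each), a difference of 0.30 (exact two-sided permutation p = 0.0286, the floor for groups of 4, and 0.0429 adjusted over the 3 ratios computed). The adjusted value is under 0.05 only because the ratio of miR-126a-3p to miR-139-5p, which shares the miR-126a-3p counts, is also at the floor. It is therefore not independent evidence, and limma over all hairpins gave this ratio an adjusted p of 0.271. Without chow replicate 4 the difference was 0.20.

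The ratio of miR-126a-3p to miR-139-5p separated the diets too, but it rests on the same miR-126a-3p counts and is not separate support. The 3 ratios between members depend on one another, since any 2 of them fix the other. How often a ratio of other pairs of miRNAs separates the diets was not computed. It was 51.8, 50.0, 51.6 and 52.0 in HFrD replicates 1 to 4 and 59.0, 75.9, 56.9 and 79.8 in chow replicates 1 to 4. The spread of the HFrD ratios (SD 0.897 around a mean of 51.4) was smaller than the counting error of miR-139-5p alone, 7.11% to 8.70% in these libraries, so their closeness cannot be read as a property of the HFrD livers. The chow libraries fell into a lower pair (replicates 1 and 3) and a higher pair (replicates 2 and 4). The log2 ratio was 5.68 ± 0.026 in HFrD and 6.06 ± 0.25 in chow (SD, n = 4 each), a difference of −0.39 (exact permutation p = 0.0286, adjusted p = 0.0429 over the 3 ratios), or −0.30 without chow replicate 4. The ratio of miR-126a-5p to miR-139-5p, from 2.06 to 2.36 in HFrD and from 2.07 to 2.90 in chow, overlapped, with a log2 difference of −0.09 (exact permutation p = 0.600, adjusted p = 0.600).

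**Figure D3:**
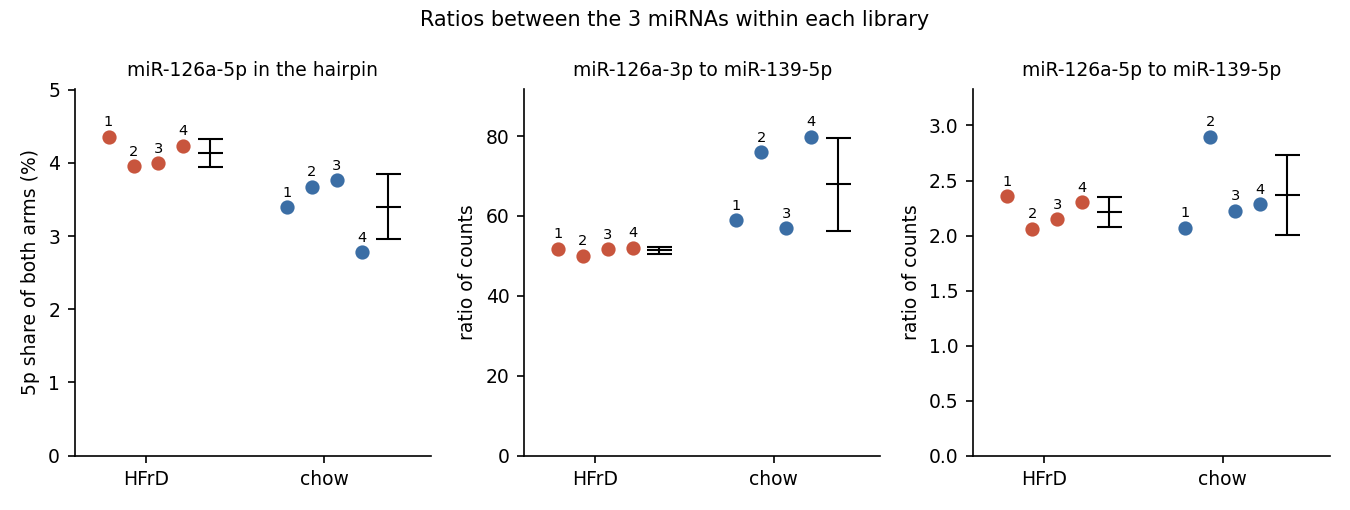
Share of miR-126a-5p in the counts of both arms (left) and the ratios of miR-126a-3p (middle) and miR-126a-5p (right) to miR-139-5p in each library, as numbered points with mean ± SD bars for 4 samples per diet. The HFrD values lie above all chow values on the left, from 3.95% to 4.36%, and below all of them in the middle, from 50.0 to 52.0. On the right the groups overlap.

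Set among the 20 hairpins with both arms past the filter, the miR-126a arm ratio was not unusual in size. Its difference between diets of 0.30 (SE 0.19, 95% interval −0.11 to 0.71) had an adjusted p of 0.271 in limma over the 20 hairpins and ranked 10th by p. The median size of the difference was 0.29 over all hairpins. None of the 20 (0%) passed the adjusted test in limma, and 4 had an unadjusted p under 0.05. The diets separated without overlap for 2 of the 20 (10%), miR-126a being 1 of them. Across the 8 samples, the log2 CPM of the miR-126a arms had a Pearson r of 0.58, the 4th highest of the 20 hairpins, whose median was 0.13. These are descriptions over 8 libraries that share scaling and diet.

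**Figure D4:**
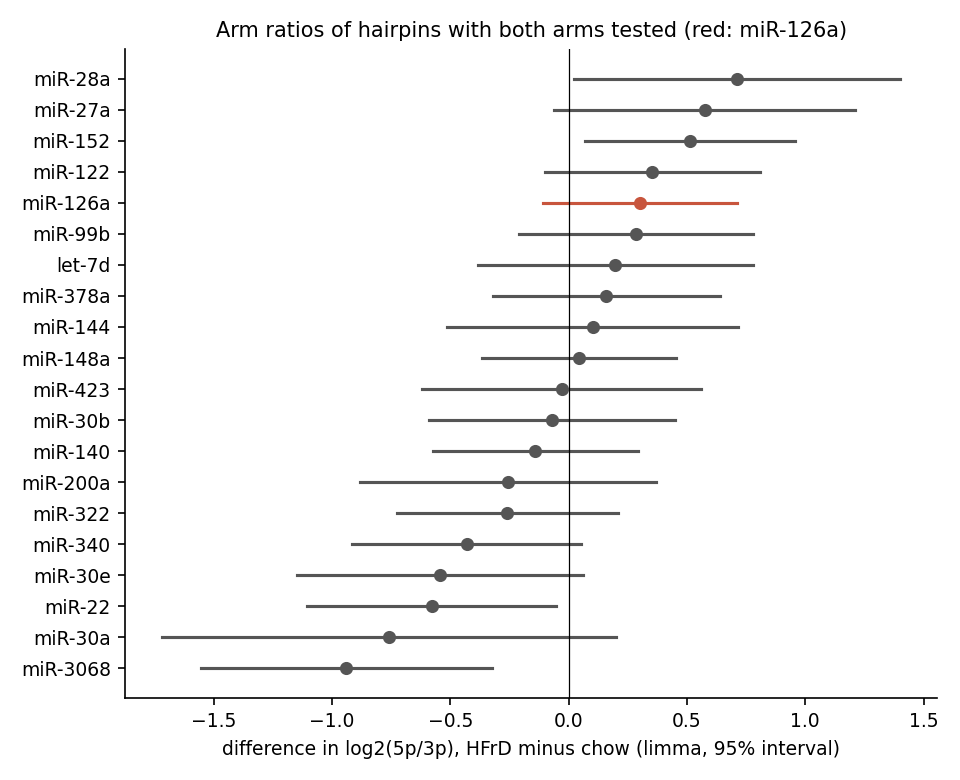
Difference between diets in the log2 ratio of 5p to 3p CPM, HFrD minus chow, for 20 hairpins with both arms past the filter, as points with 95% intervals from limma. miR-126a, in red, lies at 0.30 with an interval that includes 0.

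Within HFrD the 3 miRNAs kept almost the same order of samples. Replicate 1 was highest and replicate 2 lowest for all 3, and both miR-126a arms had the order 2, 3, 4, 1 from low to high. Replicate 1 also had the highest TMM factor of all libraries, 1.13. In chow the order differed between them. Replicate 4 was highest for miR-126a-3p, replicate 2 for miR-126a-5p and replicate 3 for miR-139-5p. In chow replicate 4, miR-126a-3p was 0.26 above the diet mean on the log2 scale, whereas miR-126a-5p was at −0.03 and miR-139-5p at 0.01. Read sampling limits these orders. In HFrD the counting error of miR-139-5p was 7.11% to 8.70%, above its coefficient of variation of 4.82%, so its order there is not resolved. For miR-126a-5p in HFrD the counting error was 4.63% to 6.06%, against a coefficient of variation of 10.6%. The order of HFrD replicates 3 and 4 is not resolved for either miR-126a arm. For miR-126a-3p they were at 6098 and 6131 CPM, with counting errors of 1.02% and 1.11%. For miR-126a-5p they were at 254 and 271 CPM, with counting errors of 4.98% and 5.28%.

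By likeness of log2 CPM over the 8 samples, other miRNAs were closer to miR-126a-3p than its own partner arm was. The closest 3 of 169 were miR-27b-3p (Pearson r = 0.96), a regulator of lipid-metabolism genes, miR-24-3p (0.95), a precursor of which lies beside that of miR-27b, and miR-30a-5p (0.90). miR-126a-5p ranked 31st (0.58) and miR-139-5p 70th (0.21). Of the closest miRNAs, miR-27b-3p and miR-30a-5p were themselves called lower in HFrD (log2 fold changes −0.45 and −0.46, adjusted p = 0.0123 and 0.0423, edgeR), and miR-24-3p was at −0.32 (adjusted p = 0.0953). miR-126a-5p was most like miR-122-5p (0.79), the main hepatocyte miRNA, then miR-22-3p (0.67) and miR-200b-3p (0.65), with miR-126a-3p in 8th place. miR-139-5p was most like miR-151-3p (0.68), miR-374b-5p (0.67) and miR-30c-5p (0.66), with miR-126a-5p 24th (0.30) and miR-126a-3p 40th. These correlations mix the difference between diets with the spread within them, and all libraries share one scaling. Counting error, 4.63% to 6.06% for miR-126a-5p and 7.11% to 8.91% for miR-139-5p, can also lower their correlations. The ranks thus do not show that the arms vary apart.

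A list of 24 miRNAs described in endothelial cells gave the wider setting, and 15 of its 19 members in the table passed the filter. Of the 15, miR-126a-3p and miR-27b-3p were lower (6 of all 170 miRNAs, 3.53%, were called lower, and 5.88% in either direction) and 13 did not pass. Log2 fold changes were below 0 for 11 of 15, with a median of −0.12, against 81 of 170 (47.6%) and a median of 0.01 over all tested miRNAs. The 3 members are among the 11. In the lists for other cells given below, values were below 0 for 4 of 4 bile duct, 2 of 2 muscle and 4 of 6 hepatocyte members. They were below 0 for 2 of 4 members of the list for stellate cells, fibroblasts and smooth muscle. The erythroid, lymphoid and myeloid lists had 0 such members. miR-10a-5p, encoded in the HoxB cluster and a regulator of endothelial inflammation, averaged 576 ± 16.6 CPM in HFrD and 662 ± 37.7 CPM in chow (SD, n = 4 each), at −0.20 on the log2 scale (SE 0.090, adjusted p = 0.175, edgeR). Groups did not overlap for 5 of the 15, against 24 of all 170 miRNAs (14.1%), namely both called members, miR-10a-5p, miR-24-3p and miR-100-5p (−0.12, SE 0.083, adjusted p = 0.412, edgeR). miR-221-3p, which restrains endothelial migration, was at 0.06 (SE 0.11), and miR-210-3p, induced by hypoxia, at −0.36 (SE 0.21, adjusted p = 0.349, edgeR). The others were miR-10b-5p at −0.20, miR-218-5p at −0.19, miR-23a-3p at −0.12, miR-23b-3p at 0.06, miR-27a-3p at 0.12 and miR-322-5p at 0.19. Most of these miRNAs are also expressed in other liver cells. The summed level of the listed members ran from 15493 to 16414 CPM in HFrD and from 18491 to 24246 CPM in chow, with miR-126a-3p and miR-27b-3p holding most of it. Means in HFrD and chow were 6113 and 8234 CPM for miR-126a-3p and 6225 and 8518 CPM for miR-27b-3p. The lower sum in HFrD thus mostly restates these called members and says little about the rest of the list. miR-126b-3p, miR-126b-5p, miR-139-3p, miR-296-5p and miR-503-5p were not listed, and miR-92a-3p, miR-222-3p, miR-130a-3p and miR-132-3p did not pass the filter.

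**Figure D5:**
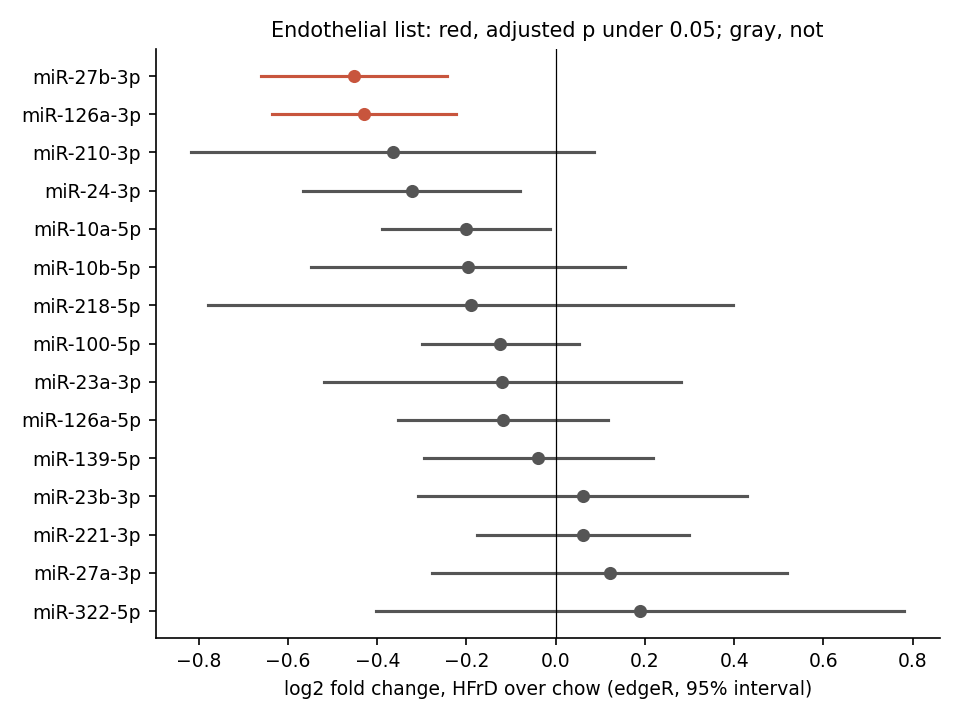
Log2 fold change, HFrD over chow, of the 15 tested members of the endothelial list, as points with 95% intervals from edgeR. miR-126a-3p and miR-27b-3p, in red, passed an adjusted p of 0.05, and the intervals of miR-126a-5p (at −0.12) and miR-139-5p (at −0.04) include 0.

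In whole liver, fewer endothelial cells and less of a miRNA per cell cannot be told apart, and no endothelial messenger RNA was analysed here against which to check the cell type. Of miRNAs marking other cells, 1 of 6 tested hepatocyte members was lower, miR-122-3p (log2 fold change −0.64, adjusted p = 0.0110, edgeR), named after its values were seen, against 6 of all 170 miRNAs (3.53%) called lower. The most abundant hepatocyte members, miR-148a-3p and miR-122-5p, were at −0.14 (adjusted p = 0.396) and −0.26 (adjusted p = 0.0987), and the list's median was −0.14. The summed level of the hepatocyte list was 582030 to 628970 CPM in HFrD and 616795 to 705159 CPM in chow. No tested member passed the adjusted test in the other 6 lists. The myeloid and platelet list had 1 tested member, miR-146a-5p at 0.01, and its summed level, over the 7 of 8 members in the table, was 253 to 393 CPM in HFrD and 232 to 432 CPM in chow. The lymphoid list (2 tested, median 0.13) was led by miR-181a-5p at 0.19 and miR-150-5p at 0.06, and the erythroid list (4 tested, median 0.21) by miR-451a at 0.06 and miR-486a-5p at 0.25. The list for stellate cells, fibroblasts and smooth muscle (4 tested, median 0.05) was led by miR-143-3p at −0.09 and miR-199a-3p at 0.19. The bile duct list (4 tested, median −0.19) was led by miR-200a-3p at −0.20 and miR-200b-3p at −0.18, and the muscle list (2 tested, median −0.21) by miR-1a-3p at −0.17 and miR-206-3p at −0.24. The part of hepatocyte or other cells in the lower miR-126a-3p was not tested.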

How the data were processed

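Per the labels' protocols, liver RNA was extracted with TRIzol, depleted of ribosomal RNA and made into stranded total RNA libraries sequenced on a NovaSeq. The selection of small RNAs, the miRNA reference release and the handling of multiply matching reads are each not given in the sources used here. Per the submitters' processing notes, cutadapt 1.9.2, Novoalign 3.02.12 and the mm10 build were used. The authors deposited raw counts per miRNA entry and sample, with 1252 of 3544 cells blank after merging, which were read as 0. They also deposited normalized values, a score here because their scale is not stated: in each library they equal the counts divided by a number between 4.21 and 6.19 and rounded.

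The 484 entries were merged to 443 mature sequences. edgeR 4.0.16 (filterByExpr with a minimum count of 10, TMM factors, quasi-likelihood test, Benjamini-Hochberg over 170 miRNAs, threshold 0.05) compared 4 HFrD with 4 chow samples, with limma 3.58.1 for arm ratios (CPM plus 0.5) and exact two-sided permutation tests over 70 assignments for ratios between members. DESeq2 1.42.0 was an alternative. Correlations used log2 CPM with a prior count of 2. Depth per library was 1120035 to 1638036 counts, and counting errors cover sampling of reads only, since no molecular identifiers are recorded. Seed matches, hairpins and hosts came from RefSeq and GENCODE M21 on GRCm38. Besides the members, the text names every miRNA of the endothelial list, the 3 miRNAs most correlated with each member and the most abundant 2 tested members of the other lists. The members and lists were chosen with earlier results of these data known.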

Additional observations from a re-analysis of the deposited data

How the results depend on the processing

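miR-126a-3p was below 0 under all 22 alternatives, with adjusted p from 0.00197 to 0.154, and its call ended with upper quartile factors (−0.32) and without chow replicate 2 or HFrD replicate 4. Leaving out each replicate gave −0.49 to −0.36 for miR-126a-3p and −0.10 to 0.026 for miR-139-5p, which turned above 0 without chow replicate 3. miR-126a-5p turned to 0.01 with library totals. miR-139-5p turned to 0.085 with library totals, 0.055 with upper quartile factors, 0.028 with no filter, and 0.068, 0.070 and 0.061 with the authors' normalized values plus 1, 0.5 and 5. The adjusted p of miR-126a-5p ran from 0.335 to 0.993 and that of miR-139-5p from 0.441 to 0.947.

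The 10 calls became 23 with library totals, 1 with upper quartile factors, 22 with no filter, 17 with predicted sequences left out and 20 with the authors' normalized values under each pseudocount. They were 1 to 17 with a replicate left out: 1 without chow replicate 2, 17 without chow replicate 3 and 6 without HFrD replicate 4. Called arm ratios were 0 to 1 with a replicate left out.

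With the replicate number as a block, edgeR made 15 calls, with miR-126a-3p at −0.42 (adjusted p = 0.0105), and the differences in log2 ratio, 0.30 for 5p to 3p and −0.39 for miR-126a-3p to miR-139-5p, are the same by construction, while an exact sign-flip test cannot go below p = 0.125 with 4 pairs. Same-numbered samples had correlations of deviations of 0.15, −0.10, 0.05 and 0.01, and 2 of 8 samples correlated best with their own number, so the numbers were not taken as pairs. With a replicate left out, the ratio differences were 0.20 to 0.35 for 5p to 3p, −0.47 to −0.30 for miR-126a-3p to miR-139-5p (exact permutation p = 0.0571, a floor set by 3 samples against 4) and −0.15 to 0.014 for miR-126a-5p to miR-139-5p, above 0 without chow replicate 2. The cause of these changes was not tested. Depth limits miR-139-5p most, with 126 to 198 counts a library.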
